A study of Mus musculus with 8 samples.

Results

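The chromatin accessibility described here is that of 8 neurotrophin and GDNF family genes in mouse retinal ganglion cells (RGCs): the ligand genes Bdnf, Ntf3 and Gdnf and the receptor genes Ntrk2, Ntrk3, Ngfr, Gfra1 and Ret. Peaks of all 8 deposited ATAC-Seq lists were merged into 189914 regions, and the 172 regions that overlapped 1 of these genes or the 10 kb on either side of it were taken. ATAC-Seq marks open chromatin, because a transposase inserts sequencing adapters where DNA is not covered by nucleosomes. All 8 samples came from C57BL/6J mice of both sexes, 6 to 10 weeks old. AAV2 carrying GFP (the control, 3 samples), Ezh2 (3 samples) or Ezh2-Y726D (2 samples) was injected into the vitreous body, the optic nerve was crushed 2 weeks later, and 50000 RGCs per library were sorted 3 days after the crush. Every group, the GFP group included, had therefore received virus and a crush, and no sample from an uninjured nerve was analysed here. Ezh2 is the histone methyltransferase that places the repressive mark H3K27me3, and Ezh2-Y726D is its catalytically dead form. RGCs were sorted by the surface protein Thy1, AAV2 does not reach every RGC, and the promoter that drove the 3 transgenes is not given in the sources used here.

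Neurotrophins are secreted survival factors. BDNF (from Bdnf) acts through the receptor tyrosine kinase TrkB (Ntrk2), neurotrophin-3 (Ntf3) mainly through TrkC (Ntrk3), and both also bind p75 (Ngfr), a receptor of the tumour necrosis factor receptor family that can signal survival or death. GDNF (Gdnf) binds the membrane-anchored coreceptor GFRα1 (Gfra1), and the complex activates the receptor tyrosine kinase Ret. RGCs depend on BDNF carried back from their targets and made in the retina, and an optic nerve injury cuts off the first of these supplies.

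The lists held 112939 to 135895 peaks each, with median widths of 470 to 508 bp, and since they hold no read numbers the depth of each library is unknown. Each peak carries the authors' fold, the pileup at its summit over the background around it in that library. Since the background differs between libraries, a peak is described here by the percentile of its fold among all peaks of its own list, and equal percentiles at different regions of a list are ties of fold. The RGC label was checked against 15 RGC genes, of which 84.4% (GFP), 88.9% (Ezh2) and 90.0% (Ezh2-Y726D) had a peak within 1 kb of a gene end. Tusc5 was the RGC gene without a peak in either Ezh2-Y726D list. Genes of other retinal cells were open as well: 81.0% to 100% of 7 rod genes, 91.7% to 100% of 6 bipolar cell genes and 90.0% of 10 Müller glia genes in each group. So were 75.0% to 87.5% of 8 amacrine and horizontal cell genes. For 5 astrocyte genes the share was 66.7% to 70.0%, and for 9 endothelial cell and pericyte genes 63.0% to 70.4%. Of 15 microglia and macrophage genes, 10, 8 and 12 had such a peak with GFP, 12, 10 and 11 with Ezh2, and 3 in each library with Ezh2-Y726D, where Cx3cr1, Csf1r and Ptprc had none. Of 15 T cell genes, 13 to 14 had one with GFP, 14 in each library with Ezh2, and 6 and 5 with Ezh2-Y726D. The Ezh2-Y726D libraries thus stood apart from the other 6 in 2 marker lists, and the part of those cells in any difference with Ezh2-Y726D given here was not tested. In bulk samples, fewer cells of a type and less open chromatin per cell cannot be told apart.

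RefSeq (GRCm38.p6) gave 14 start-site windows, from 250 bases before to 50 after a start, for 6 of the 8 genes, 7 of them in Bdnf, whose alternative first exons each have a promoter. Ntrk3 and Ret had none in the table used. A window counts as having a peak in a list when the merged region it overlaps has one there. That list's own peak may lie outside the window. The 250 bases upstream of 7 of these start sites are shown here. Those of Bdnf and Gdnf contrast start sites with a peak in every list with another start site of the same gene that had a peak in fewer lists or in none, and those of Ngfr and Ntrk2 are the single windows of 2 receptor genes, with a peak in every list. Capitals mark matches on either strand to the core of the cyclic AMP response element (TGACG), to the AP-1 motif (TGANTCA) or to the Sp1 box (GGGCGG).
Bdnf, chr2:109676782-109677031, plus strand, peak in 8 lists: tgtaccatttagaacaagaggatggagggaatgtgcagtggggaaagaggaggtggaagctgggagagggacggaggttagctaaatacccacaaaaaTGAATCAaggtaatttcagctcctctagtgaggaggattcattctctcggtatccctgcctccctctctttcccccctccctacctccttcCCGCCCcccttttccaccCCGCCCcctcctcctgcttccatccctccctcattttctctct
Bdnf, chr2:109692186-109692435, plus strand, peak in 6 lists: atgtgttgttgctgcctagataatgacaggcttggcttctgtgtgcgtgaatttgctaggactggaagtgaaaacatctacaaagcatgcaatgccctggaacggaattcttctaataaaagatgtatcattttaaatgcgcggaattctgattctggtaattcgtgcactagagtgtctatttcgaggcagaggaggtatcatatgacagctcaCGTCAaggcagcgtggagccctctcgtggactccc
Bdnf, chr2:109692777-109693026, plus strand, peak in 8 lists: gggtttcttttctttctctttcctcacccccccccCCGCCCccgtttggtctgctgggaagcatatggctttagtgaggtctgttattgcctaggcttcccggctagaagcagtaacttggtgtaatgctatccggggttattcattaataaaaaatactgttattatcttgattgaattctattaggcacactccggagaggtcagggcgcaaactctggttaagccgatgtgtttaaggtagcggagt
Gdnf, chr15:7809798-7810047, plus strand, peak in no list: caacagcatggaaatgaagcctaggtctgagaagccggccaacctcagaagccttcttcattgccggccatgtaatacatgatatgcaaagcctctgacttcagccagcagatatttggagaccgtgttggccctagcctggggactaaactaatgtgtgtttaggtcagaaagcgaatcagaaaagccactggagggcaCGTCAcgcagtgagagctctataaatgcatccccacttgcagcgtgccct
Gdnf, chr15:7813477-7813726, plus strand, peak in 8 lists: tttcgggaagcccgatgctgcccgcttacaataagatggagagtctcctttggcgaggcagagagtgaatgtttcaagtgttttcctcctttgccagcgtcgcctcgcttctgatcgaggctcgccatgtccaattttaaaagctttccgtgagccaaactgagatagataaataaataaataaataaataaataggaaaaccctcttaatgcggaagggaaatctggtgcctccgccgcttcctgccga
Ngfr, chr11:95587699-95587948, minus strand, peak in 8 lists: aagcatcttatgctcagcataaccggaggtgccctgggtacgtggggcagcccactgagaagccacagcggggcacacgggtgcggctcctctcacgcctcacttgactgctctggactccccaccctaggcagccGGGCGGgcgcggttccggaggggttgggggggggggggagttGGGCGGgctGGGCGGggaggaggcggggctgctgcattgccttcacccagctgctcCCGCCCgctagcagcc
Ntrk2, chr13:58806319-58806568, plus strand, peak in 8 lists: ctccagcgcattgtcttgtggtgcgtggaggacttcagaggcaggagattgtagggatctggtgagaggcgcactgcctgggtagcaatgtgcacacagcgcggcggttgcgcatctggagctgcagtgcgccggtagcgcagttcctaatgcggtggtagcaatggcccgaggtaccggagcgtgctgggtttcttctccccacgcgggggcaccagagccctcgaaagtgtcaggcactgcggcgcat

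The Sp1 box, a GC-rich promoter motif, was found in 5 of the 14 windows, against 32.7% of 32851 RefSeq windows of the same length. The Ngfr window held 4 matches. The cyclic AMP response element core, a site known from activity-dependent Bdnf promoters, was found in 2 windows, 1 of Bdnf and 1 of Gdnf, against 17.8% of all windows. The full element (TGACGTCA), which contains that core, was in 0 of the 14 windows and in 1.55% of all. The AP-1 motif, bound by Jun and Fos factors that are induced by nerve injury, was found in 1 window of Bdnf, against 6.75% of all, and the E-box CANNTG was in 13 of 14 windows, against 66.2%. The ratio of observed to expected CpG was 1.02 upstream of the Gdnf start site with a peak in every list. It was 0.434 upstream of the Gdnf start site without a peak. The Bdnf and Ntf3 windows were not ordered in this way. In Bdnf the ratio was 0.233 to 0.597 for the 4 windows with a peak in all lists, 0.706 for the window with a peak in 6 lists, and 0.104 and 0.468 for the 2 windows without a peak. In Ntf3 it was 0.838 for the window with a peak in 1 list and 0.474 for the window without one. Over all RefSeq windows, the median of this ratio was 0.719 where every list had a peak and 0.182 where none had. These matches are letters in a window and not evidence of binding.

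A region with a peak in every list was found at all 8 genes, and the highest were inside the receptor genes. Of the 172 regions, 61 (35.5%) had a peak in all 8 lists, 77 in several and 34 (19.8%) in 1. Among all 189914 regions the shares were 36.6% in all 8 lists and 17.2% in 1, so the 8 genes did not differ much from the genome in this respect. The median percentile of the 61 regions was 61.3, against 67.3 for the 69493 regions of the genome in all 8 lists, and the median width of the 172 regions was 557 bp, against 559 bp.

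**Figure D1:**
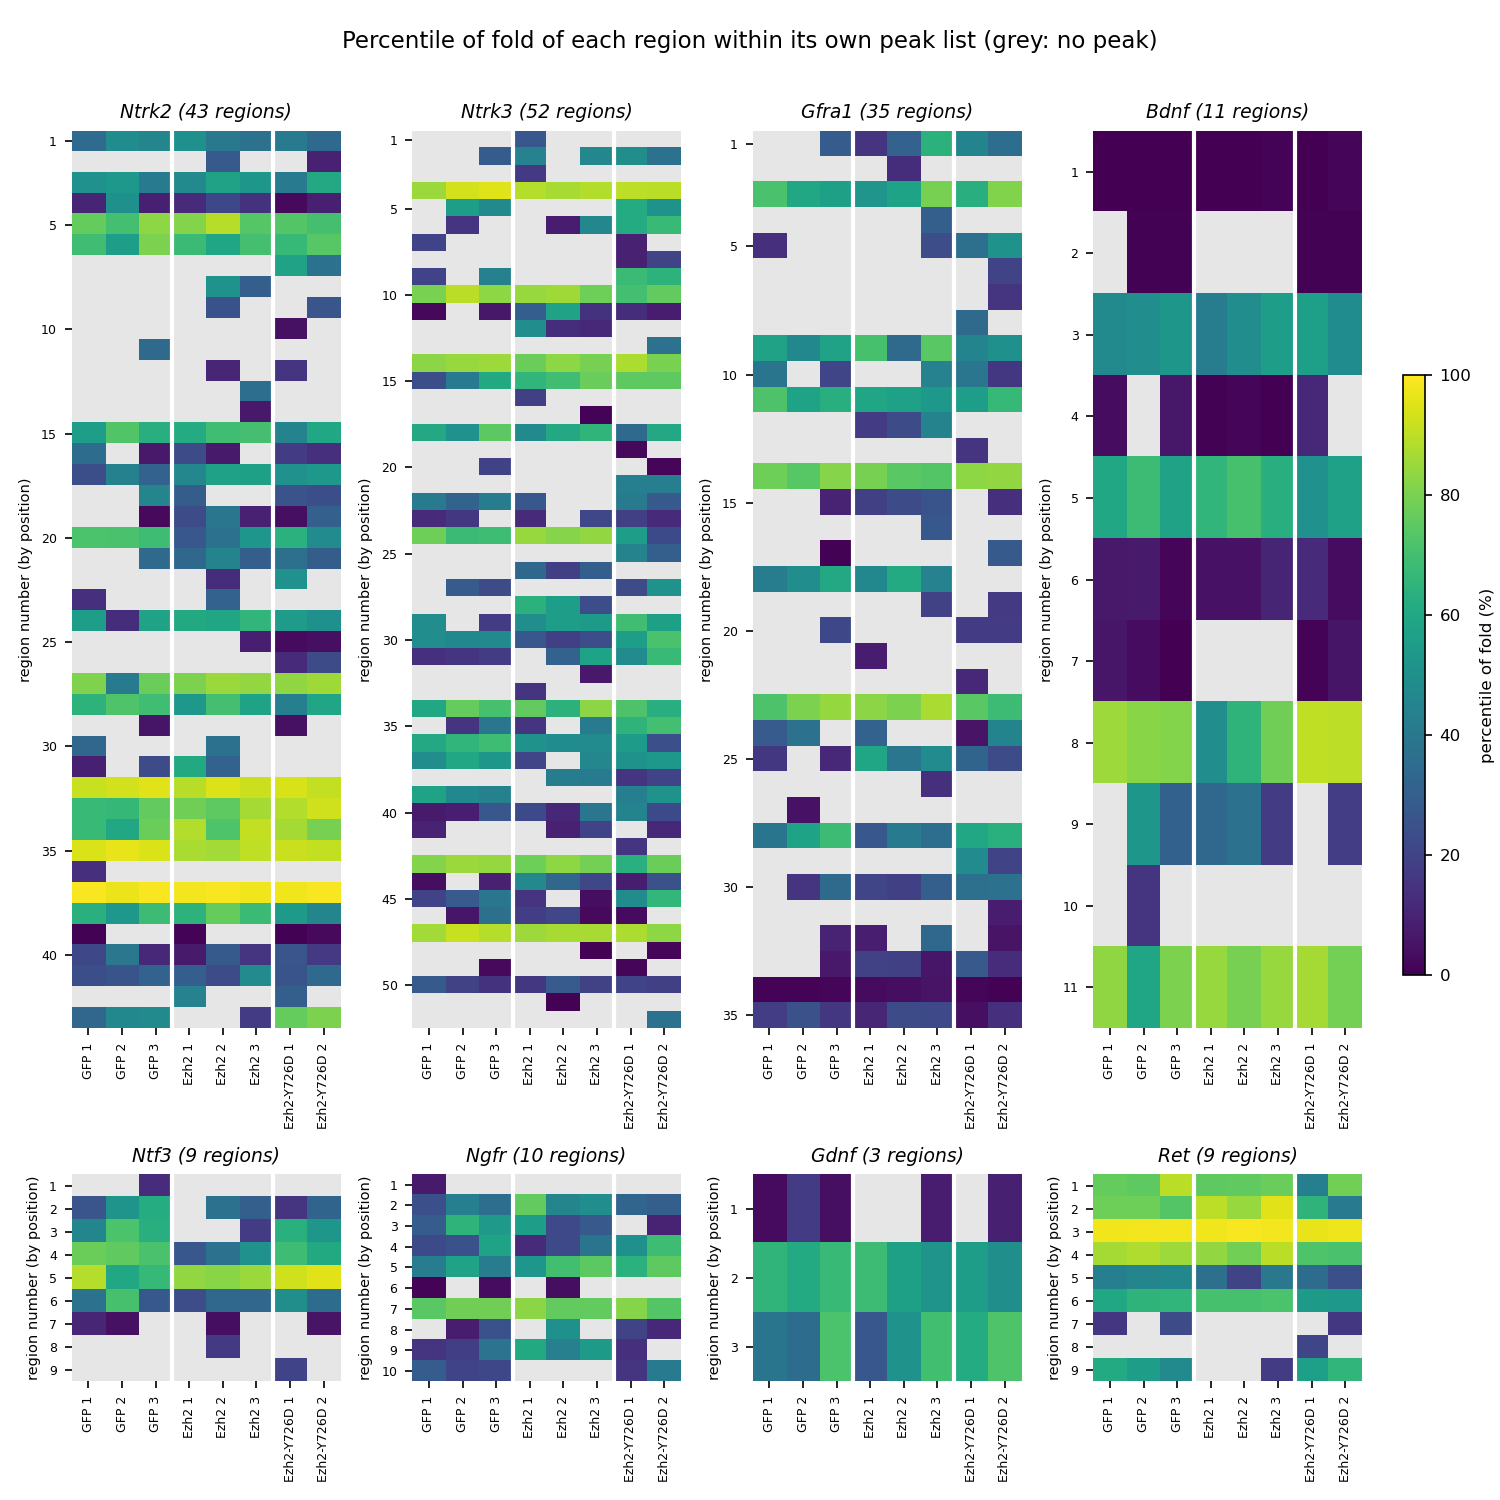
Percentile of fold within its own list (colour, 0 to 100%) for each of the 172 regions (vertical axis, numbered by position on the chromosome) in each of the 8 samples (horizontal axis), with grey where a list had no peak. Rows at high percentiles such as Ntrk2 region 37 and Ret region 3 run through all 8 samples, whereas most grey cells lie in the long receptor genes Ntrk2, Ntrk3 and Gfra1.

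Ntrk2 region 37 (chr13:59073196-59074255) stood highest. Its fold was at percentiles 99.1, 97.2 and 99.0 in the GFP samples, 98.1, 99.1 and 97.9 in the Ezh2 samples and 98.0 and 99.0 in the Ezh2-Y726D samples. It also overlaps the annotated gene Gm53063, so it cannot be assigned to Ntrk2 alone. Ret region 3 (chr6:118179323-118180462) came next, at 97.8, 98.4 and 98.2 with GFP, 97.9, 99.2 and 98.1 with Ezh2, and 96.8 and 97.3 with Ezh2-Y726D. The 3 groups overlapped at Ntrk2 region 37, and at Ret region 3 the Ezh2-Y726D samples were the lowest, with no comparison past the test (limma, adjusted p between 0.296 and 0.859). The highest region of Ntrk3, region 4 (chr7:78190507-78191647), lay between percentiles 85.1 and 95.0. In the ligand genes, the highest were Ntf3 region 5 (chr6:126154199-126154941, 59.9 to 95.5) and Bdnf region 11 in the flank of the gene (chr2:109734964-109736761, 58.6 to 86.6). Gfra1 region 23 (chr19:58364412-58365349) ranged from 68.5 to 87.4. Gdnf had 3 regions, the fewest of the 8 genes, and the highest of them was at a start site.

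Of the 14 start-site windows, 8 (57.1%) overlapped a region with a peak in all 8 lists and 4 overlapped no region. Among 32851 RefSeq windows, 48.0% overlapped a region with a peak in all 8 lists. Ngfr region 7 (chr11:95586021-95588083) held the strongest start site. Its percentiles were 74.4, 78.3 and 78.4 with GFP, 82.8, 75.8 and 76.0 with Ezh2, and 81.8 and 73.4 with Ezh2-Y726D, and its summits lay 15 to 90 bases downstream of the start. The groups overlapped there, with normal scores that differed by 0.03 ± 0.18 (SE) between Ezh2 and GFP and by 0.05 ± 0.20 between Ezh2 and Ezh2-Y726D. Gdnf region 2 (chr15:7812762-7814186) was at 65.3, 61.0 and 67.8 with GFP, 68.5, 56.7 and 51.9 with Ezh2, and 55.8 and 49.7 with Ezh2-Y726D. Its summits lay at −780 to −287 bases from the start, where negative is upstream. Both Ezh2-Y726D values lay below all GFP values, but no comparison of this region passed the test (limma, adjusted p between 0.276 and 0.603). Ntrk2 region 1 (chr13:58806303-58808917) ranged from 34.2 to 50.3 and overlapped between groups. The start site of Gfra1, in region 35 (chr19:58454196-58456167), was weakly open, at percentiles 4.06 to 24.8, and shares that region with the annotated gene Gm41876. For Ntf3, 1 of 2 start windows had a peak, in region 8 and in Ezh2 replicate 2 alone.

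The regions at Bdnf start sites differed in percentile, which is that of the strongest peak in the region and not of the start itself. Region 5 (chr2:109692779-109694525), which covers 2 start windows, was at percentiles 60.1, 68.5 and 57.7 with GFP, 66.0, 71.0 and 62.9 with Ezh2, and 50.7 and 57.4 with Ezh2-Y726D. Its summits lay at 510 to 578 bases from the first start and at −872 to −804 from the second, where negative is upstream. All 3 Ezh2 values lay above both Ezh2-Y726D values, and the difference in normal score, 0.41 ± 0.21, did not pass the test (limma, adjusted p = 0.223). Region 3 (chr2:109676892-109678714) was at 41.9 to 56.3 and region 1 (chr2:109673931-109674456) at 0.184 to 1.83, among the weakest peaks of each list. The summits of region 3 lay 374 to 594 bases downstream of its start. Region 1 overlaps the window of the most upstream start but ends 244 bases before that start, in the flank of the gene. Region 4 (chr2:109692208-109692624), whose window carries the cyclic AMP response element core, had peaks in 6 lists at percentiles of 0.345 to 11.3. The 2 remaining Bdnf start windows had no peak in any list.

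**Figure D2:**
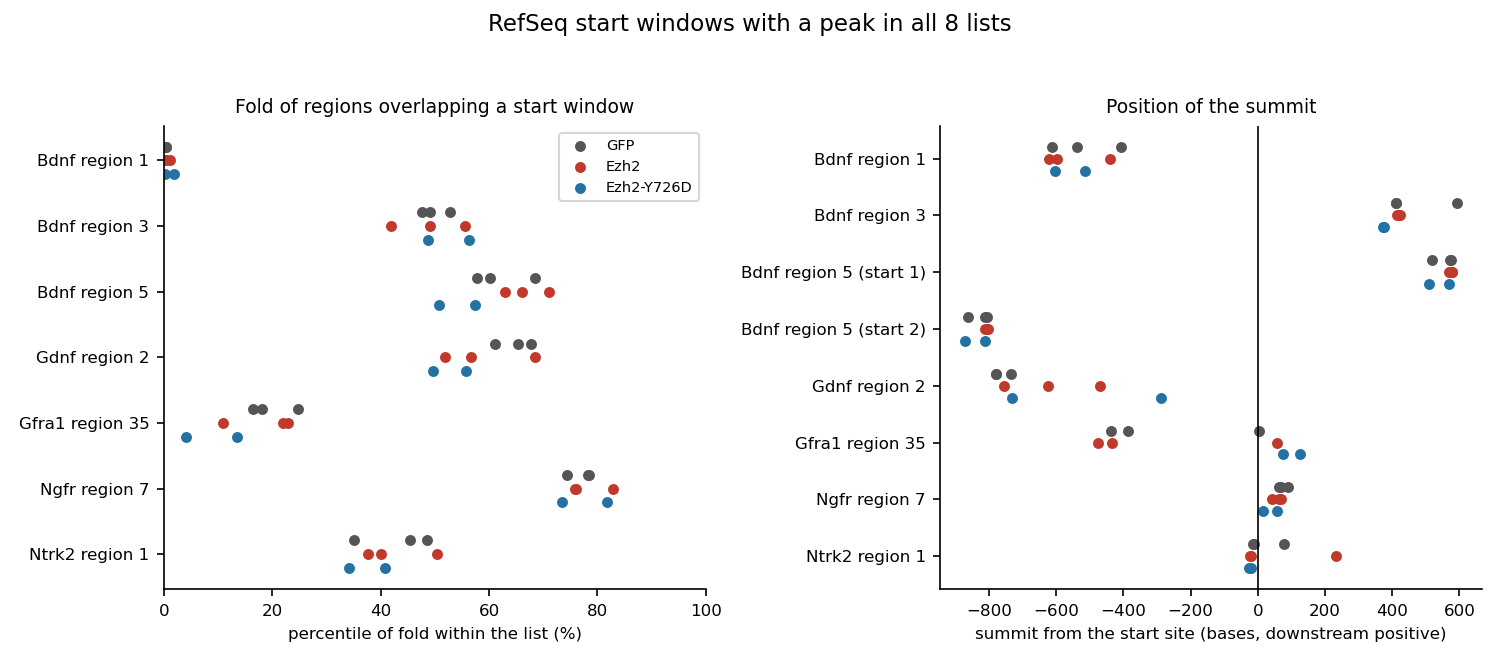
Left, percentile of fold within the list (0 to 100%) for the 7 regions with a peak in all 8 lists that overlap a RefSeq start window. Right, distance of the summit from the start site in bases for the 8 start windows they overlap, with 1 point per sample coloured by group. Ngfr region 7 sits between 73.4 and 82.8 with its summits within 90 bases of the start, and Bdnf region 1, which lies upstream of its start, does not exceed 1.83.

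Ret and Ntrk3 were examined at the ends of the gene. Ret region 6 (chr6:118196450-118197982) had a peak in all 8 lists, whereas the region at a gene end of Ntrk3 (region 51, chr7:78579866-78580071) had a peak in 1 list, Ezh2 replicate 2. Ntrk3 region 50 next to it (chr7:78577021-78579358) was open in all 8 lists, at percentiles of 14.8 to 28.9.

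The number of open regions at the long receptor genes was highest with Ezh2-Y726D. At Ntrk3, 25, 24 and 29 regions had a peak with GFP, 30, 25 and 32 with Ezh2, and 37 and 37 with Ezh2-Y726D, of 52 in all. At Ntrk2 the numbers were 26, 20 and 27, then 26, 30 and 26, then 33 and 30, of 43. At Gfra1 they were 13, 12 and 18, then 18, 16 and 22, then 20 and 24, of 35. For these 3 genes both Ezh2-Y726D samples exceeded all GFP samples, with means of 37.0 ± 0 against 26.0 ± 2.65 at Ntrk3 (SD, n = 2 and 3), 31.5 ± 2.12 against 24.3 ± 3.79 at Ntrk2 and 22.0 ± 2.83 against 14.3 ± 3.21 at Gfra1. Ngfr went the other way, with 9, 8 and 9 regions with GFP, 6, 8 and 6 with Ezh2 and 7 and 7 with Ezh2-Y726D. The size of some of these differences depended on which peaks and flanks were counted. Between Ezh2-Y726D and GFP, the difference in mean number at Ngfr was −1.67 regions, and −0.833 with only peaks of −log10 q of at least 5, −0.667 with flanks of 50 kb and −3.0 with lists cut to equal length. At Ntrk2 it was 7.17 regions, and 3.67 with peaks of −log10 q of at least 5. At Gfra1 it was 7.67, and 5.0 with the same peaks, and at Ntrk3 it stayed within 1.5 times in each alternative.

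Between Ezh2-Y726D and GFP, 3 of the 8 genes thus had more regions with a peak without overlap and 1 had fewer, against 8.34% and 11.9% of 18690 protein-coding genes. Ezh2 separated from GFP at 0 of the 8 genes, where 8.36% of protein-coding genes were higher and 2.42% lower. That number was 1, 2 and 1 without GFP replicates 1, 2 and 3 and 3 and 2 without Ezh2 replicates 2 and 3. Against Ezh2-Y726D, the Ezh2 samples had fewer regions at Bdnf (8, 8 and 8 against 9 and 9), Ntrk3 and Ret (6, 6 and 7 against 8 and 8), and more at none, against 8.25% of protein-coding genes lower and 21.5% higher. Without Ezh2 replicate 2, 6 genes separated. The mean difference between the 2 forms was −1.0 region at Bdnf and −0.167 with peaks of −log10 q of at least 5 or with peaks covering 0.5 of a region, and at Ret it was −1.67 and came to −1.0 with the first of these and to 0 without flanks. No test was made of these numbers, since the smallest exact two-sided p is 0.10 for 3 against 3 samples and 0.20 for 3 against 2, and genes with more regions have more room to separate. Over all regions of the genome, the samples held 107916 to 129123 (GFP), 121215 to 131089 (Ezh2), and 119970 and 124591 (Ezh2-Y726D) regions with a peak, so the lists of the 2 forms of Ezh2 overlapped in length. GFP replicates 1 and 2, with 110790 and 107916 regions, lay below both Ezh2-Y726D samples. With lists of equal length, Ezh2-Y726D exceeded GFP by 4.83 regions at Ntrk2, 7.67 at Ntrk3 and 5.67 at Gfra1. In that setting 4 genes still separated between these groups. Both comparisons with GFP used the same 3 GFP samples. In total, at the 8 genes and their flanks, 98, 90 and 110 regions had a peak with GFP, 99, 101 and 109 with Ezh2, and 122 and 124 with Ezh2-Y726D.

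**Figure D3:**
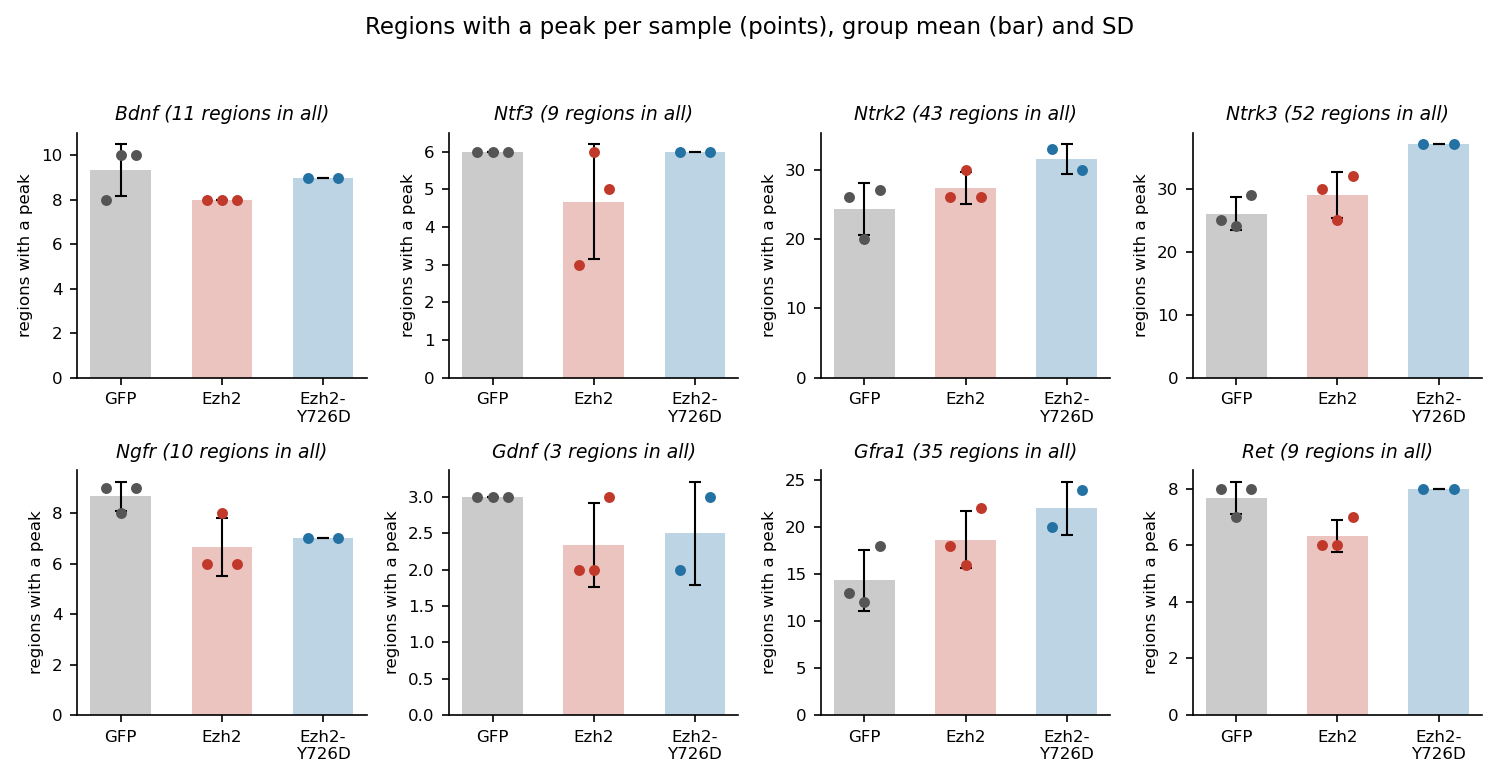
Number of regions with a peak (vertical axis) in each sample (points), with the group mean (bar) and SD (error bar), for each of the 8 genes. The Ezh2-Y726D samples lie above all GFP samples at Ntrk2, Ntrk3 and Gfra1 (for example 37 and 37 against 24 to 29 at Ntrk3) and below them at Ngfr.

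The comparison of Ezh2 with GFP asked what active Ezh2 changed in the open chromatin of injured RGCs. Ntf3 region 4 and Ntrk2 region 20 fell with Ezh2, and no region of the 8 genes rose. For this graded comparison, the 69493 regions found in every list were ranked within each library by fold, and limma tested the group means of the normal scores of these ranks. Adjusted p-values cover all 69493 regions. Of the 61 regions, 2 were called lower (3.28%), against 2.84% of all regions tested, and 0 were called higher, against 1.59%, so the share called was close to that of the genome. Without GFP replicate 3, 1 region was called higher. At an unadjusted p under 0.05 stood 14 of the 61 regions (23.0%), against 20.0% of all. The median difference in normal score was −0.02 over the 61 regions and 0.01 over all.

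Ntf3 region 4 (chr6:126105905-126106970), inside the gene of the TrkC ligand, was at percentiles 77.7, 75.5 and 71.1 with GFP, 27.3, 37.2 and 50.6 with Ezh2, and 69.1 and 60.6 with Ezh2-Y726D. Every Ezh2 sample lay below every sample of the other 2 groups. The deposited fold fell from 6.88, 7.11 and 6.30 to 3.91, 4.15 and 4.58. The difference in normal score between Ezh2 and GFP was −1.17 ± 0.20 (SE) with an adjusted p of 0.0144 by limma, which became 0.0521 without GFP replicate 2. Ntrk2 region 20 (chr13:58938439-58938931), inside the TrkB gene, was at 71.8, 71.1 and 69.1 with GFP and at 27.3, 37.2 and 52.5 with Ezh2. Of the Ezh2-Y726D samples, 1 lay between the 2 groups, at 63.7, and the other within the Ezh2 range, at 48.4. The difference between Ezh2 and GFP was −1.0 ± 0.21 with an adjusted p of 0.0283 by limma. Among refits without 1 sample, that call was lost when any GFP replicate or Ezh2 replicate 1 or 2 was left out, with adjusted p-values of 0.0742, 0.0900 and 0.0596 without GFP replicates 1, 2 and 3 and 0.0895 and 0.0687 without Ezh2 replicates 1 and 2. In Ezh2 replicates 1 and 2 both regions had the same folds, 3.91 and 4.15. These folds recur in the same lists at Ntrk3 region 1 and Ntrk2 region 30, which had a peak in only 1 and 2 lists. With peaks of −log10 q of at least 5, neither Ntf3 region 4 nor Ntrk2 region 20 could be fitted, since not every list kept a peak there.

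By presence alone, 4 regions were gained with Ezh2 (2.33%), that is, had a peak in all Ezh2 samples and in no GFP sample, and 3 were lost (1.74%), against 2.72% and 1.68% of all merged regions. The gained regions lay in Ntrk3 (regions 12, 26 and 28) and Gfra1 (region 12). The strongest, Ntrk3 region 28 (chr7:78451657-78452220), was at percentiles 64.1, 55.5 and 23.8 with Ezh2 and had no peak in the other 5 lists. Gfra1 region 12 (chr19:58301247-58301701) was at 17.8, 23.2 and 44.9 and also absent from the other lists. The lost regions were Bdnf region 7, Ntrk3 region 39 and Ngfr region 10, and all 3 had a peak in both Ezh2-Y726D samples. Ntrk3 region 39 (chr7:78518540-78519257) was at 57.5, 46.7 and 43.9 with GFP and at 43.0 and 51.4 with Ezh2-Y726D. The number gained was 9 without GFP replicate 3, and the number lost was 6 and 5 without GFP replicates 1 and 2 and 7 without Ezh2 replicate 3. A region without a peak was below the authors' threshold in that list, which is not the same as closed.

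The comparison of Ezh2-Y726D with GFP asked what Ezh2 without its catalytic activity changed. Ntrk2 region 33 and Ntrk3 region 15 rose, and Ntrk3 region 24 fell. These were 2 regions called higher (3.28%), against 3.55% of all regions tested, and 1 called lower (1.64%, 2 regions without Ezh2-Y726D replicate 1), against 4.65%. At an unadjusted p under 0.05 stood 15 of the 61 (24.6%), against 24.4% of all. The median difference was −0.11 over the 61 regions and −0.01 over all.

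Ntrk2 region 33 (chr13:59022021-59023040) was at percentiles 67.4, 66.7 and 75.9 with GFP, 78.5, 75.0 and 86.5 with Ezh2, and 88.3 and 92.6 with Ezh2-Y726D. Both Ezh2-Y726D samples were above all others, and the Ezh2 samples overlapped those of GFP. The difference between Ezh2-Y726D and GFP was 0.91 ± 0.20 with an adjusted p of 0.0240 by limma, which rose to 0.0636 and 0.0660 without GFP replicates 1 and 2 and to 0.0790 and 0.152 without Ezh2-Y726D replicates 1 and 2. It was 0.0624 when regions with a peak in at least 5 lists were tested. Ntrk3 region 15 (chr7:78376533-78377358) was at 24.1, 41.4 and 60.8 with GFP, 66.0, 69.2 and 77.0 with Ezh2, and 75.2 and 75.3 with Ezh2-Y726D. The GFP samples were below all others and spread widely. The difference from GFP was 0.99 ± 0.25 with Ezh2-Y726D (limma, adjusted p = 0.0404) and 0.86 ± 0.23 with Ezh2 (adjusted p = 0.0618), and the difference between Ezh2 and Ezh2-Y726D was −0.13 ± 0.25. The call was lost without GFP replicate 1 or 2 (adjusted p of 0.0877 and 0.0871), without Ezh2 replicate 1 or 2 (0.0533 and 0.0538) and without Ezh2-Y726D replicate 1 or 2 (0.176 and 0.154), and with regions in at least 5 lists (0.0961).

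Ntrk3 region 24 (chr7:78409772-78410715) was at 78.1, 68.0 and 68.8 with GFP, 84.5, 81.9 and 83.7 with Ezh2, and 56.1 and 22.4 with Ezh2-Y726D. The 3 groups did not overlap, and the order was Ezh2, GFP, Ezh2-Y726D. The difference between Ezh2-Y726D and GFP was −1.03 ± 0.28 with an adjusted p of 0.0490 by limma. It rested on Ezh2-Y726D replicate 2, since it came to −0.52 without that sample (adjusted p = 0.324), and the call was also lost without any 1 GFP sample (0.121, 0.0917 and 0.0698 without replicates 1, 2 and 3) or any 1 Ezh2 sample (0.0618, 0.0615 and 0.0620), under a ranking by −log10 p (0.0535) and with regions in at least 5 lists (0.0600). Ntf3 region 5, with the largest difference of the 61 regions in this comparison, 1.09 ± 0.31, did not pass the test (adjusted p = 0.0580).

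With Ezh2-Y726D 8 regions were gained (4.65%) and 1 was lost (0.581%), against 4.77% and 4.72% of all merged regions. The gained regions were 3 in Ntrk2, 4 in Ntrk3 and 1 in Gfra1. Ntrk2 region 7 (chr13:58853693-58853976) was at percentiles 57.5 and 37.8 in the Ezh2-Y726D samples and Ntrk3 region 21 (chr7:78396123-78396602) at 43.0 and 42.8, and neither had a peak in the other 6 lists. Ntrk3 region 25 (chr7:78411978-78412516) was at 44.7 and 30.3 and Gfra1 region 29 (chr19:58401015-58401594) at 48.3 and 20.6, again with no peak elsewhere. The lost region was Gfra1 region 18 (chr19:58341345-58341901), at 42.1, 49.1 and 60.2 with GFP and at 46.8, 61.0 and 44.4 with Ezh2. The number gained was 10, 9 and 15 without GFP replicates 1, 2 and 3, and 17 and 19 without Ezh2-Y726D replicates 1 and 2. The number lost was 3 without GFP replicate 2 and 2 and 3 without Ezh2-Y726D replicates 1 and 2. Leaving a list out relaxes the rule, so these numbers cannot fall, and why they rose unequally was not tested.

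The comparison of Ezh2 with Ezh2-Y726D separates the 2 forms of the enzyme. Ntrk3 region 24 and Ret regions 2 and 6 were higher with Ezh2, and Bdnf region 8, Ntf3 region 4, Ntrk3 region 30 and Ngfr region 4 were lower. Called higher were 3 regions (4.92%), against 7.0% of all regions tested, and called lower 4 (6.56%), against 6.96%. At an unadjusted p under 0.05 stood 15 of the 61 (24.6%), against 29.4% of all, and the median difference was 0.05 over the 61 and 0.02 over all. The marker genes of microglia and T cells differed between the same 2 groups, with 20.0% and 36.7% of them open with Ezh2-Y726D against 73.3% and 93.3% with Ezh2, and their part in these calls was not tested.

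Among the ligand genes, Bdnf region 8 (chr2:109706288-109707177) was at percentiles 85.4, 82.4 and 81.4 with GFP, 49.2, 65.2 and 78.4 with Ezh2, and 90.3 and 90.2 with Ezh2-Y726D. Every Ezh2 sample lay below all 5 others. The difference between Ezh2 and Ezh2-Y726D was −1.08 ± 0.25 with an adjusted p of 0.0190 by limma, and 0.102 and 0.0924 without Ezh2-Y726D replicates 1 and 2. The difference between Ezh2 and GFP, −0.71 ± 0.22, did not pass (adjusted p = 0.103). At Ntf3 region 4, described with the GFP comparison, the difference between the 2 forms was −0.77 ± 0.22 (limma, adjusted p = 0.0423). It lost its call in 9 of 13 alternatives, with an adjusted p of up to 0.223 when Ezh2-Y726D replicate 1 was left out, and of 0.0533 and 0.0581 without GFP replicates 1 and 2, 0.136 and 0.0995 without Ezh2 replicates 1 and 2 and 0.0859 without Ezh2-Y726D replicate 2. It was 0.0811 with regions in at least 5 lists.

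Among the neurotrophin receptors, Ntrk3 region 30 (chr7:78462424-78463048) was at 49.1, 46.7 and 48.0 with GFP, 27.3, 18.8 and 23.8 with Ezh2, and 56.1 and 71.1 with Ezh2-Y726D. The 3 groups did not overlap. The difference of −1.17 ± 0.20 between Ezh2 and Ezh2-Y726D had an adjusted p of 0.00544 by limma and passed in all 12 alternatives that could be fitted, with adjusted p-values of 0.00858 to 0.0480. Region 30 could not be fitted with peaks of −log10 q of at least 5 or with lists of equal length. Not every list kept a peak there under those settings. The difference between Ezh2 and GFP at that region was −0.72 ± 0.18 and just missed the threshold (adjusted p = 0.0524). With regions in at least 5 lists it was called lower (−0.78, adjusted p = 0.0495 by limma). Ntrk3 regions 24 and 30 therefore moved in opposite directions within 1 gene: at region 24 the difference between Ezh2 and Ezh2-Y726D was 1.48 ± 0.28 (adjusted p = 0.00783, and 0.0593 without Ezh2-Y726D replicate 2). Ngfr region 4 (chr11:95570855-95572185), in the p75 gene, was at 22.6, 25.0 and 57.9 with GFP, 12.3, 22.0 and 38.4 with Ezh2, and 50.3 and 69.1 with Ezh2-Y726D. The GFP samples overlapped both other groups. The difference was −1.06 ± 0.30 (limma, adjusted p = 0.0453), and the call was lost without GFP replicate 2 (0.0574), Ezh2 replicates 1 or 2 (0.133 and 0.0969) or Ezh2-Y726D replicates 1 or 2 (0.0780 and 0.252). It was also lost under a ranking by −log10 p (0.0506) and with regions in at least 5 lists (0.0931).

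Ret, the signalling receptor of the GDNF complex, had 2 of its 6 regions in every list called. Ret region 2 (chr6:118166778-118167631) was at percentiles 78.1, 78.1 and 73.4 with GFP, 90.0, 84.5 and 95.5 with Ezh2, and 65.0 and 41.2 with Ezh2-Y726D. The groups did not overlap, and GFP lay between the 2 forms of Ezh2. Their difference was 1.51 ± 0.27 with an adjusted p of 0.00703 by limma, and 1.13 with an adjusted p of 0.0679 without Ezh2-Y726D replicate 2. Ret region 6, at a gene end, was at 59.4, 65.1 and 66.0 with GFP, 71.0, 71.0 and 71.6 with Ezh2, and 54.3 and 53.5 with Ezh2-Y726D. This smaller difference of 0.58 ± 0.17 (adjusted p = 0.0441) lost its call in 12 of 14 alternatives, all 8 that left out 1 sample among them, with adjusted p-values of up to 0.196. All 6 Ret regions in every list had a higher mean normal score with Ezh2 than with Ezh2-Y726D, by 0.03 to 1.51, and a lower one with Ezh2-Y726D than with GFP, by 0.24 to 0.81. Over all 69493 regions tested, 36166 were higher with Ezh2 than with Ezh2-Y726D, and 33719 were higher with Ezh2-Y726D than with GFP. Both Ret comparisons use the same 2 Ezh2-Y726D samples, and Ret was picked out of the 8 genes for this reading. The median difference over the 6 Ret regions was 0.52 between Ezh2 and Ezh2-Y726D, against 0.02 over all regions tested. Regions of 1 gene in the same libraries are not replicates. No region of Gdnf or Gfra1 was called in any of the 3 comparisons in the main fit, which ranks by fold. Ranking by −log10 p called Gfra1 regions 28 and 14 lower with Ezh2 than with Ezh2-Y726D. Their differences were −1.10 and −0.48 (limma, adjusted p = 0.0348 and 0.0359). Lists of equal length also called region 28 (−0.84, adjusted p = 0.0477). In the main fit the adjusted p-values of these 2 regions were 0.0594 and 0.268.

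**Figure D4:**
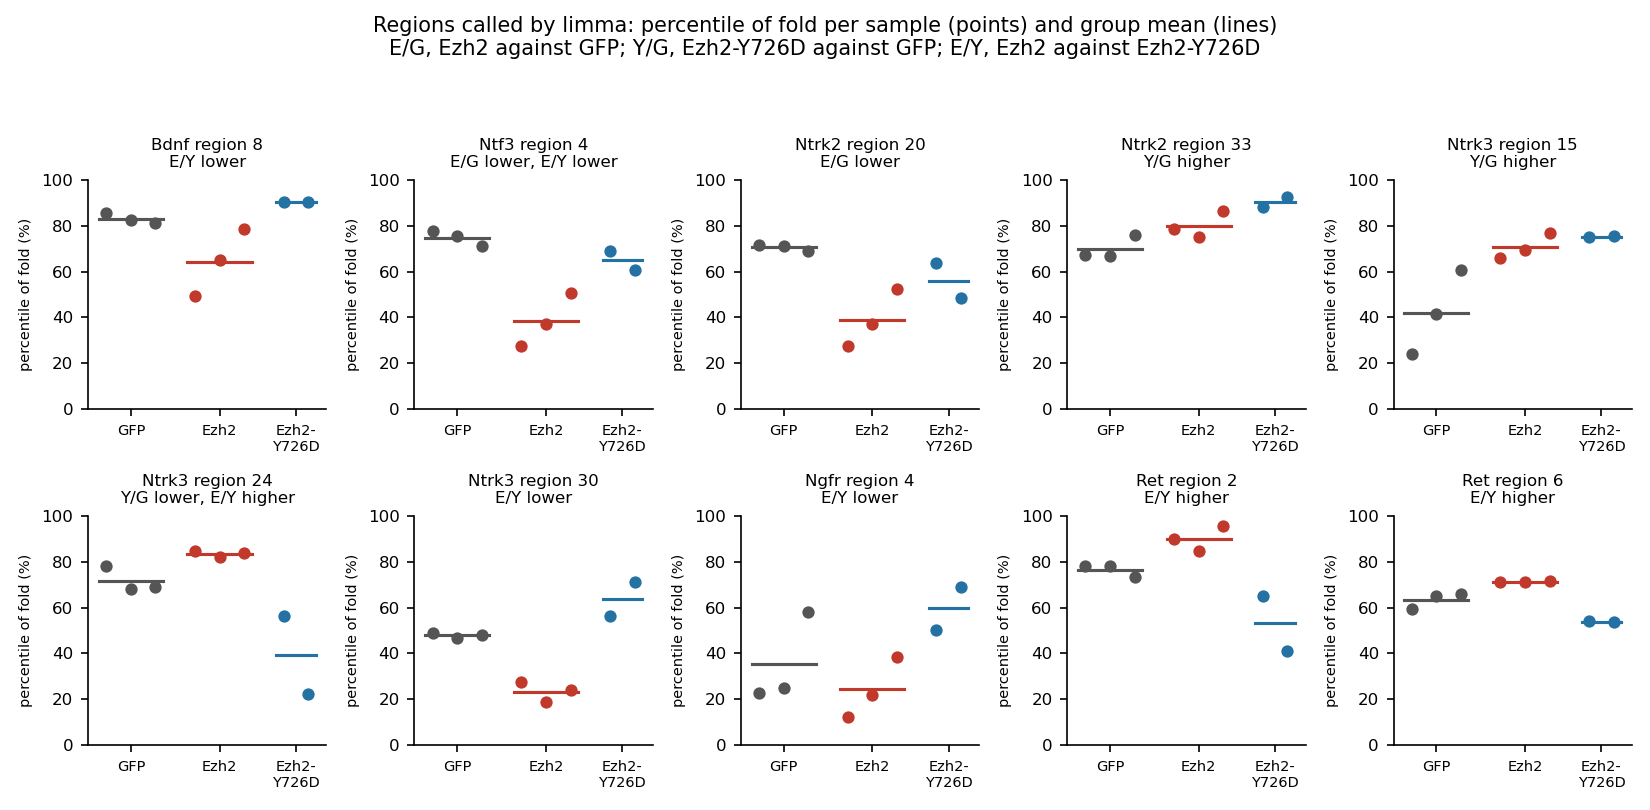
Percentile of fold within the list (vertical axis, 0 to 100%) in each of the 8 samples (points) with group means (lines) for the 10 regions called by limma in at least 1 comparison. At Ntrk3 region 24 and Ret region 2 the order of the groups is Ezh2, GFP, Ezh2-Y726D, and at Bdnf region 8 and Ntrk3 region 30 it is reversed.

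Gained with Ezh2 relative to Ezh2-Y726D were 5 regions (2.91%) and lost were 14 (8.14%), against 8.96% and 6.14% of all merged regions. The gained regions lay in Ntrk3 (regions 12, 26 and 28) and Gfra1 (regions 12 and 18). Of the 14 lost regions, 7 lay in Ntrk3, and 2 each in Bdnf, Ntrk2 and Gfra1. The last was Ngfr region 10. Ntrk3 region 5 (chr7:78220770-78221647) was at percentiles 61.4 and 51.4 with Ezh2-Y726D and at 56.0 and 48.0 in GFP replicates 2 and 3, and Ntrk3 region 9 (chr7:78283020-78283601) at 68.1 and 64.8 and at 20.0 and 43.9 in GFP replicates 1 and 3. Neither had a peak in any Ezh2 list. The number lost was 22 and 25 without Ezh2-Y726D replicates 1 and 2, and the number gained was 8 without either.

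**Figure D5:**
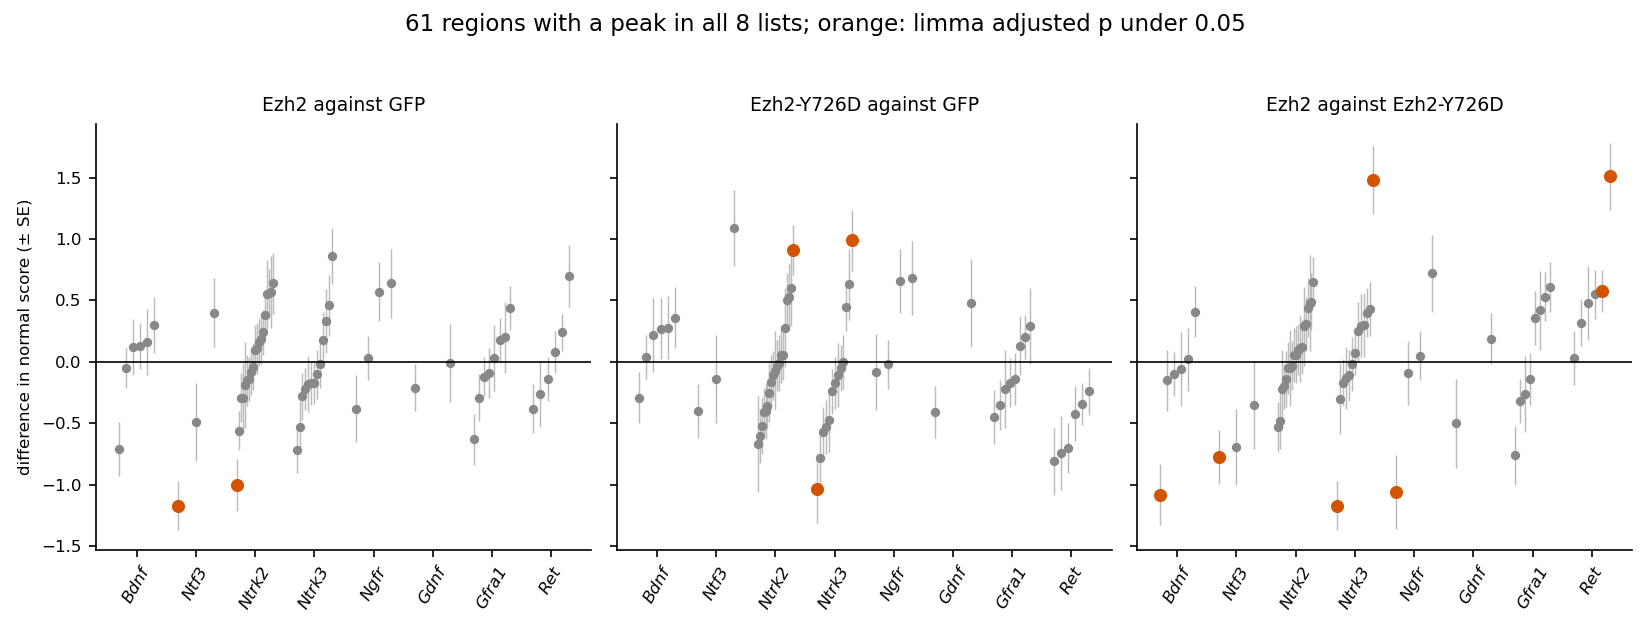
Difference in normal score with its SE (vertical axis) for each of the 61 regions in all 8 lists, grouped by gene (horizontal axis), in the 3 comparisons, with regions called by limma in orange. Of the 61 regions, 2, 3 and 7 were called, and all 6 Ret points lie below 0 between Ezh2-Y726D and GFP and above 0 between Ezh2 and Ezh2-Y726D.

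Summits are the points of highest pileup in a peak. Over the 61 regions, the median distance between the outermost summits of the 8 lists was 158 bp, against 135 bp over all 69493 regions, and it was within 100 bp at 12 of 61 regions, against 26895 of 69493.

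The other genes of these pathways were read from a list of 28: 5 ligands, 8 receptors and coreceptors and 15 adaptors and effectors. They held 449 regions, 169 of them with a peak in every list. Of those 169, limma called 1 higher and 3 lower between Ezh2 and GFP, 5 and 7 between Ezh2-Y726D and GFP, and 11 and 7 between Ezh2 and Ezh2-Y726D, and the shares (0.592% and 1.78%, 2.96% and 4.14%, 6.51% and 4.14%) were below those of all regions in each case. In Grb2, an adaptor that couples Trk receptors and Ret to Ras, the region chr11:115640811-115641858 was at percentiles 77.9, 83.2 and 77.3 with GFP, 79.0, 88.0 and 85.8 with Ezh2, and 37.0 and 37.8 with Ezh2-Y726D. It fell with Ezh2-Y726D against GFP by 1.38 on the normal score scale (limma, adjusted p = 0.00542) and differed by 1.59 between Ezh2 and Ezh2-Y726D (adjusted p = 0.00160). Grb2 is also used in immune cells, and fewer of the microglia and T cell marker genes had a peak with Ezh2-Y726D, but their part in this result was not tested. In Gfra2, the coreceptor of neurturin, chr14:70963076-70964168 was at 41.4, 25.7 and 49.8 with GFP, 55.7, 66.0 and 77.6 with Ezh2, and 10.3 and 24.5 with Ezh2-Y726D. The Ezh2 samples were above all others, with a difference of 1.47 from Ezh2-Y726D (adjusted p = 0.00495). These 2 regions were named after their values were seen.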

How the data were processed

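ATAC-Seq was done on 8 samples, grouped by their titles. The submitters' processing notes name cutadapt, Bowtie2, SAMtools, Picard, MACS2 and deepTools and the build GRCm38, with versions not given in the sources used here. Peaks were called by the authors per sample, and 1 list per sample was deposited. The deposited fold is a ratio, the summit pileup over the background around it. The −log10 p-value and the −log10 q-value, also deposited, come from the peak caller. The deposited summit is a distance from the start of the peak. The deposited score was not used.

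Peaks of the 8 lists sharing at least 1 bp were merged, and the highest fold of a list in a region was used. Percentiles are mid-ranks of fold in the list. Regions were assigned to genes by RefSeq positions (GRCm38.p6). Neither exons nor a genome were used, so exonic and intronic positions are not given. Regions in all 8 lists were compared with limma 3.58.1 (R 4.3.3; lmFit, eBayes, all samples in 1 fit, Benjamini-Hochberg adjusted p under 0.05), on normal scores of rank. The code was tested on simulated data with even, independent noise and a shift larger than any difference in normal score given here. That test does not measure the error rate of the calls. In fits that leave an Ezh2-Y726D sample out, the lone sample is assumed to vary like the other groups. Other steps used python 3.11.15, numpy 2.4.6, pandas 2.3.3 and scipy 1.17.1. The normal score is unitless, and 1 unit is 1 SD over the regions of a list.

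Named are each gene's highest region and its region at a start site or gene end, up to 6 called regions per comparison and direction, and up to 4 gained and lost regions per comparison. The members and lists were chosen with earlier results of these data known. Nothing in the labels says whether samples came from separate animals, so p-values measure the spread between these samples. No 2 lists shared more than 0.0388% of identical peaks. The lists hold no read numbers, so no counting interval could be given. Alternatives were the ranking by −log10 p, a replicate block (by the numbers of the titles and, added after seeing the data, by those in the peak names, which differ for Ezh2-Y726D), regions in at least 5 lists, peaks with −log10 q of at least 5, lists of equal length, peaks covering at least 0.5 of a region, flanks of 0 and 50 kb, and leaving out each sample.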

Additional observations from a re-analysis of the deposited data

How the results depend on the processing

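Counts are given as higher and lower or gained and lost, first for Ezh2 against GFP, then for Ezh2-Y726D against GFP, then between both forms of Ezh2. Leaving out 1 sample at a time gave 0 to 1 and 0 to 2, 0 to 2 and 0 to 2, and 0 to 3 and 1 to 5 called regions, 4 to 9 and 3 to 7, 9 to 19 and 1 to 3, and 5 to 8 and 15 to 25 gained and lost regions, and 0 to 3, 4 to 5 and 3 to 6 genes whose numbers of regions did not overlap. With peaks of −log10 q of at least 5, called were 0 lower, 1 higher and 1 lower in turn, gained and lost were 2 and 6 with Ezh2 against GFP, 2 lost with Ezh2-Y726D and 2 gained between the 2 forms, and 1 gene separated between Ezh2 and GFP. Lists of equal length gave 1 gained and 6 lost, 3 lost, 3 gained and 2 genes in the same places. With peaks covering 0.5 of the region, 3 regions were lost with Ezh2-Y726D and 1 gene separated between Ezh2 and GFP. With 50 kb flanks, 5 and 8 regions were called between the 2 forms, 7 and 5 were gained and lost with Ezh2, 3 were lost with Ezh2-Y726D, 8 were gained between the 2 forms, and 1 gene separated between Ezh2 and GFP. Ranking by −log10 p called 2 lower with Ezh2-Y726D against GFP, and regions in at least 5 lists called 0. The 2 called lower were Ntrk3 region 36 and Ret region 2, and not Ntrk3 region 24. The 2 called higher with regions in at least 5 lists were Ntrk2 region 43 and Ntrk3 region 31, which have a peak in 6 and 7 lists, and not Ntrk2 region 33 and Ntrk3 region 15. The causes of these changes were not tested. Samples with the same replicate number correlated at −0.015 to 0.048 in their deviations from group means, and samples with different numbers at −0.048 to 0.046. The deviations of the 2 Ezh2-Y726D samples mirror each other, so these correlations cannot decide whether the numbers pair samples. The replicate numbers used there are those of the sample titles, whereas the peak names of Ezh2-Y726D replicates 1 and 2 carry the numbers 2 and 3. By the numbers in the peak names the correlations were 0.002 to 0.048. A replicate block by the titles gave 1 region called lower between Ezh2 and GFP in place of 2, since Ntrk2 region 20 lost its call (adjusted p = 0.0575 by limma), as did Ntf3 region 4 (0.0862) and Ret region 6 (0.0779) between the 2 forms, and its other called counts stayed within 1.5 times. That block also called Ngfr region 4 higher with Ezh2-Y726D than with GFP (0.90, adjusted p = 0.0414 by limma). A replicate block by the numbers in the peak names, chosen after seeing the data, gave 1 region called lower between Ezh2 and GFP, 0 lower between Ezh2-Y726D and GFP and 2 lower between the 2 forms. Under it the calls at Ntrk2 region 20 (0.0587), Ntrk3 regions 15 (0.0731) and 24 (0.0906) against GFP and Bdnf region 8 (0.0625), Ntf3 region 4 (0.101) and Ret region 6 (0.0802) between the 2 forms were lost. Ntf3 region 5 was called higher there with Ezh2-Y726D than with GFP (1.28, adjusted p = 0.0485 by limma). In refits of the named calls, 96 kept the call and 64 lost it, and 0 reversed. Ntf3 region 4, Ntrk2 region 20, Ntrk3 regions 15 and 30 and Ngfr region 4 had no fit with peaks of −log10 q of at least 5. Ntrk3 region 30 and Ngfr region 4 also had none with lists of equal length. In recounts of the difference in number of regions at a gene, 202 values stayed within the SD between replicates. The remaining 46 were counted as moving by at least that much. Where that SD was 0, unchanged values were counted among the 46. This was so at Ntf3 between Ezh2-Y726D and GFP and at Bdnf between the 2 forms. Depth, and hence the floor for an absent peak, is unknown.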
